A study of Macaca mulatta with 24 samples.

Results

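The 10 genes described here are GATA2, HDC, CPA3, MS4A2, FCER1A, CCR3, IL5RA, ALOX15, EPX and PRG2, chosen by name as markers of basophils, mast cells and eosinophils, out of 15039 genes named on the array. All non-control probes that the scanner output gives one of these names were taken, 13 probes in all. RNA of macaque whole blood was hybridized to 24 one-colour Agilent rhesus arrays. The animals were Chinese-origin rhesus macaques of both sexes, 5 to 10 years old, and all were sampled before and after a total body dose of 4 Gy, with no sham-irradiated arrays among the 24. The pre-irradiation group holds 7 arrays (4 male, 3 female), day 3 holds 4 (3 male, 1 female), day 5 holds 6 (4 male, 2 female) and day 7 holds 7 (4 male, 3 female). The labels name X-rays, while the methods name a cobalt gamma source, and the labels and methods also place the pre-irradiation draw differently.

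Basophils and mast cells carry the high-affinity IgE receptor FceRI, whose alpha chain (FCER1A) binds IgE and whose beta chain (MS4A2) amplifies the signal. They store histamine, made by histidine decarboxylase (HDC), and, in mast cells above all, the protease carboxypeptidase A3 (CPA3), and their differentiation needs the transcription factor GATA2. Eosinophils respond to eotaxins through CCR3 and to interleukin-5 through IL5RA, and their granules hold eosinophil peroxidase (EPX) and major basic protein (PRG2), while ALOX15 oxidizes arachidonic acid in these cells. Basophils circulate in blood and mature mast cells do not, and several of these genes are not exclusive to the lineages: FCER1A is also carried by dendritic cells, and GATA2 by megakaryocytes, platelets and blood progenitors.

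What the array reads for each gene is a 60-base probe, and 5 of the 13 are printed as examples of what was measured, those of EPX, ALOX15, CCR3 and IL5RA and the second CPA3 probe. Coordinates are those of the scanner output in the rheMac2 build, no base is set in capitals, and each of these probes has at least 1 reading frame without a stop codon. The EPX probe lies at chr16:42433358-42433417 on the plus strand, the ALOX15 probe at chr16:4413109-4413168 on the minus strand and the CCR3 probe at chr2:90263924-90263983 on the minus strand. The brightest of the 3 IL5RA probes lies at chr2:57917394-57917453 on the plus strand, and the dimmer of the 2 CPA3 probes at chr2:138907823-138907882 on the minus strand.
EPX: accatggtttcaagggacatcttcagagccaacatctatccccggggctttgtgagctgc
ALOX15: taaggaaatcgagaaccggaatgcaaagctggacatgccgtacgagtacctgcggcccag
CCR3: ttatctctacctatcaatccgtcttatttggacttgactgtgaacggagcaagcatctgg
IL5RA: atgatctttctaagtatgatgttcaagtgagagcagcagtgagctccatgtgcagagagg
CPA3, second probe: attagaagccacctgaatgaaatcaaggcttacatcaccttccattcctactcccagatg

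Levels are log2 processed signal (background-subtracted brightness) after each array was shifted to the median array, and a level of one probe is never set against that of another. A probe was tested when 4 or more of the 24 arrays had it marked well above background by the scanner software. That left 10 of the 13 probes and 9 of the 10 genes. PRG2 was too dim to test: its probe was well above background on 0 of 24 arrays, and 1 further probe, matched to PRG2 through its accession only, reached that mark on 1 array. Among the tested genes, GATA2 was well above background on 24 arrays, FCER1A and CCR3 on 22, HDC and EPX on 21, CPA3 on 20 (16 for its second probe), ALOX15 on 18, MS4A2 on 14 and IL5RA on 7, with its other 2 probes on none. Each gene is represented below by its brightest probe, and a gene is called changed at a limma Benjamini-Hochberg adjusted p under 0.005 over all 27112 probes tested.

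Between 48.3% and 61.1% of the probes of an array were well above background. One scan session covered 6 pre-irradiation arrays together with 6 of day 7 (session 1), and the other covered every day 3 and day 5 array beside a single pre-irradiation and a single day 7 array (session 2). Comparisons of day 3 or day 5 with pre-irradiation therefore rest, within a session, on a single pre-irradiation array. The day 7 array of replicate 2 had the lowest median processed signal, 16.7 against at most 106 on any array. Same-numbered arrays deviated together from their group means, and the replicate number is used as a block below where it changes a call. In whole blood, fewer cells of a type, less RNA per cell and a changed share of other cells cannot be told apart. The paper reports basophil and eosinophil counts of the irradiated animals, which were not set against these arrays.

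Without a block, FCER1A was the one gene of the 9 called lower than before irradiation. With the replicate number as a block, CPA3 and GATA2 were also called lower at day 7. Of all named genes, 15.4% were called at day 5 and 9.88% at day 7 in either direction, without a block. At day 5 FCER1A fell 3.93-fold and at day 7 it fell 5.65-fold, while at day 3 its mean was 3.69-fold lower and missed the threshold. The 7 pre-irradiation arrays had a level from 8.84 to 10.20 with a median of 9.67. At day 3 the 4 arrays read 5.81 in replicate 1, 8.50 in replicate 2, 8.39 in replicate 4 and 8.14 in replicate 7. At day 5 the level ran from 5.96 to 8.72 with a median of 7.79, and at day 7 from 5.14 to 8.83 with a median of 7.52. Every array after irradiation lay below every pre-irradiation array, and the lowest array of each day was that of replicate 1. The log2 change was −1.88 ± 0.46 (SE) at day 3 (limma adjusted p = 0.00851), −1.97 ± 0.40 at day 5 (limma adjusted p = 0.00194) and −2.50 ± 0.54 at day 7 (limma adjusted p = 0.00347). With the same-numbered arrays subtracted, FCER1A was lower in 4 of 4 pairs at day 3, 6 of 6 at day 5 and 7 of 7 at day 7, the smallest day 7 difference being −0.71 and the largest −4.16. The day 7 arrays of replicates 1 and 2 were not well above background, and the largest difference is that of replicate 2, so the day 7 fold rests in part on dim signal.

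The size of the FCER1A fall depended on how background was removed: with a normexp correction of the raw spot means the log2 change was −0.75 at day 5 (limma adjusted p = 0.0998) and −1.10 at day 7 (0.0756). The day 5 call was lost without replicate 2 (−1.82, limma adjusted p = 0.0118) or replicate 4 (−1.89, 0.00946). The day 7 call was lost without replicate 1 (−2.30, limma adjusted p = 0.00792), 2 (−2.22, 0.0156), 4 (−2.29, 0.0127), 5 (−2.56, 0.011) or 7 (−2.64, 0.00847), and at day 3 leaving out replicate 1 gave a call (−1.37, limma adjusted p = 0.00265). With no filter on dim probes the limma adjusted p was 0.0171 at day 5 and 0.0166 at day 7, and with the slide as a block 0.037 and 0.0094. All groups in 1 fit gave 0.0126 at day 5 (0.00194 at day 7), and the scan session as a block gave 0.157 at day 5 (0.00479 at day 7). Within session 1 the day 7 change was −2.56 over 6 arrays a group, with a limma adjusted p of 0.011. Against the single pre-irradiation array of session 2 the values for days 3, 5 and 7 were −1.96, −2.05 and −2.15, not tested within that session.

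Some markers of dendritic cells, which share FCER1A with basophils, were called lower on the same days. Of 11 listed genes 9 had a probe and 7 were tested, and 3 were called lower at day 3, 2 at day 5 and 3 at day 7, none higher, on days when 13.6%, 15.4% and 9.88% of all named genes were called in either direction. The replicate block left 1, 2 and 2 of them called. The median log2 change of the 7 was −1.45, −0.95 and −1.03 at days 3, 5 and 7, where the median over all named genes tested lay between −0.01 and 0.00. CD1C, which presents lipid antigens, changed by −2.10, −2.54 and −2.35 and was called on every day (at day 3 not with the replicate block, limma adjusted p = 0.00729), as was TCF4, a transcription factor of plasmacytoid dendritic cells, at −1.98, −2.18 and −1.94. CLEC9A, a receptor for dead cells, was called at day 3, where it was well above background on 0 of 4 arrays, so that no exact change can be given, and FCER2, the low-affinity IgE receptor that B cells carry too, at day 7 (−1.85). CD1C and TCF4 are carried by B cells too, and B-cell markers were called lower for 6 of 6 genes on each day, by −2.53 to −4.65, with a mean level from 11.3 to 11.7 before irradiation and from 7.19 to 8.63 afterwards. Others were near their pre-irradiation level, such as FCER2 at day 3 (−0.05), CLEC10A at day 5 (−0.06) and CLEC9A at day 7 (−0.08), examples chosen after their values were seen. The mean level over the 7 markers ran from 8.26 to 9.22 before irradiation, and on days 3, 5 and 7 it ran from 7.36 to 7.77, 7.05 to 8.46 and 6.96 to 8.38, and XCR1 and CD1E were well above background on no array. The part of dendritic cells in the FCER1A change, and of B cells in the marker changes, was not tested.

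MS4A2, the beta chain of the same receptor, was near the detection limit and was not called on any day. Before irradiation its level ran from 3.73 to 7.66, with a median of 6.41 and 5 of 7 arrays well above background. At day 3 the arrays read 4.72 in replicate 1, 6.04 in replicate 2, 6.72 in replicate 4 and 6.33 in replicate 7. Day 5 arrays ran from 3.62 to 6.87 and day 7 arrays from 3.39 to 7.27, with 3 arrays well above background on each day. These ranges overlap, and the log2 change at day 7 was −1.24 with a 95% interval from −2.64 to 0.15 (limma adjusted p = 0.172). The receptor's signalling gamma chain FCER1G, which other receptors use as well, was instead called higher at day 3, by 1.67 on the log2 scale (limma adjusted p = 0.00171, but 0.0107 with the replicate block), and changed by 0.96 at day 5 and 0.16 at day 7 without a call.

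**Figure D1:**
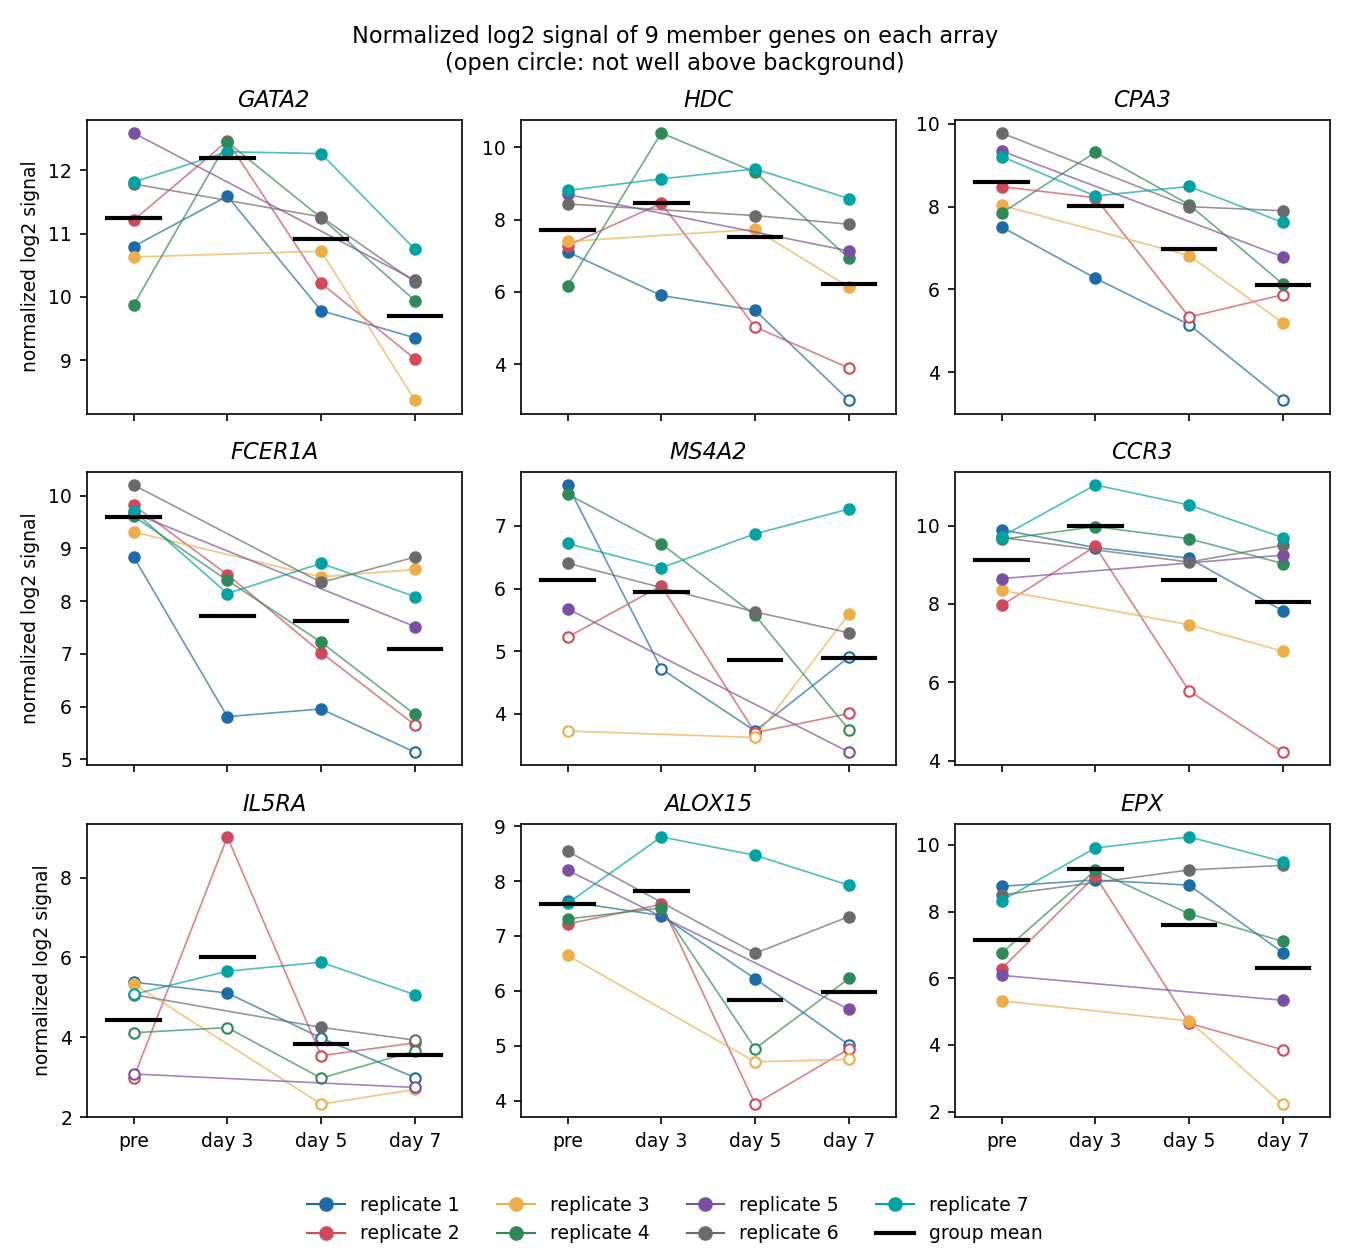
Normalized log2 signal (y axis) of the 9 tested genes on each array before irradiation and at days 3, 5 and 7 (x axis). Each point is 1 array, colours and thin lines join arrays of the same replicate number across any missing day, black bars are group means, and open circles are arrays where the probe was not well above background. FCER1A lies below all its pre-irradiation arrays on every later array, while the lines of HDC, CCR3 and EPX spread apart at days 5 and 7.

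CPA3, the granule protease, was lower at day 7 in every pair of same-numbered arrays, and whether it was called depended on the probe. Its brightest probe read from 7.51 to 9.78 before irradiation, with a median of 8.48. At day 3 the levels were 6.27 in replicate 1, 8.21 in replicate 2, 9.31 in replicate 4 and 8.26 in replicate 7. They ran from 5.16 to 8.48 with a median of 7.41 at day 5 and from 3.33 to 7.90 with a median of 6.13 at day 7. Of the 7 day 7 arrays, 5 lay below all pre-irradiation arrays and 2 overlapped them. The log2 change at day 7 was −2.48 ± 0.61 (SE), a 5.57-fold lower mean (limma adjusted p = 0.00753), and −1.62 ± 0.58 at day 5 (limma adjusted p = 0.043). This probe was well above background on 5 of 7 day 7 and 4 of 6 day 5 arrays, so both sizes rest in part on dim signal.

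The second CPA3 probe, printed above, was called at day 7, with a log2 change of −2.17 ± 0.46 (limma adjusted p = 0.00305). It read from 5.96 to 8.09 before irradiation, and at day 7 it had a median of 4.27 and a highest value of 6.36, where 6 of 7 arrays lay below all pre-irradiation arrays. Only 3 of those 7 were well above background, so the size of this change is set in part by dim signal. With the replicate number as a block, both probes were called at day 7 (limma adjusted p = 0.000546 for the brightest and 0.000262 for the second). Within session 1 the brightest probe changed by −2.47 (limma adjusted p = 0.0204) and the second by −2.08 (limma adjusted p = 0.0118), so neither was called.

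HDC, the enzyme that makes histamine, spread apart between animals and was not called. Before irradiation it ran from 6.17 to 8.81 with a median of 7.40. At day 3 it read 5.90 in replicate 1, 8.45 in replicate 2, 10.40 in replicate 4 and 9.13 in replicate 7, so that replicates 4 and 7 were above every pre-irradiation array and replicate 1 below them all. At day 5 it ran from 5.03 to 9.40, and at day 7 from 3.01 to 8.58 with a median of 6.93. The SD over arrays was 0.98 before irradiation and 2.06 at day 7. Replicates 1 and 2 were not well above background at day 7, and replicate 7 was at the upper end. The log2 change at day 7 was −1.48 with a 95% interval from −3.12 to 0.17 (limma adjusted p = 0.17), and 6 of 7 pairs were lower.

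GATA2 was well above background on every array, and its mean was above pre-irradiation at day 3 and below it at day 7. Pre-irradiation arrays ran from 9.87 to 12.59 with a median of 11.21. At day 3 the level was 11.59 in replicate 1, 12.46 in replicate 2, 12.45 in replicate 4 and 12.29 in replicate 7. It ran from 9.78 to 12.27 at day 5 and from 8.37 to 10.75 at day 7, when the median was 9.94. Every day 7 array lay below every day 3 array, and 3 of 7 lay below all pre-irradiation arrays. The log2 change from pre-irradiation was 0.96 ± 0.44 (SE) at day 3 (limma adjusted p = 0.107), −0.33 ± 0.45 at day 5 (0.607) and −1.54 ± 0.42 at day 7 (0.0147). With the replicate number as a block the day 7 change was called (limma adjusted p = 0.00422). Each day 3 array lay above the pre-irradiation array of its number, which read 10.80, 11.21, 9.87 and 11.81 in replicates 1, 2, 4 and 7. The day 3 value changed sign, to −0.39, with the scan session as a block. That estimate rests on the single pre-irradiation array of session 2, replicate 5, which had the highest level of its group, 12.59.

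Between days, GATA2 was the one member gene called: at day 7 it was 5.64-fold lower than at day 3, a log2 change of −2.49 ± 0.41 (limma adjusted p = 0.00465). That call was lost with the replicate number as a block (−2.43, limma adjusted p = 0.00984), with quantile normalization (−2.47, 0.0051) and with every replicate left out in turn (replicate 1, −2.64, limma adjusted p = 0.0287; replicate 2, −2.29, 0.0154; replicate 3, −2.27, 0.00594; replicate 4, −2.45, 0.0284; replicate 5, −2.59, 0.00667; replicate 6, −2.58, 0.00634; replicate 7, −2.64, 0.0146). All 4 day 3 arrays and 6 of the 7 day 7 arrays were scanned in different sessions, and in session 2 the 1 day 7 array differed from the mean of the 4 day 3 arrays by −1.94 log2 units. With the scan session or the slide as a block the limma adjusted p was 0.534 or 0.437. Platelet and megakaryocyte markers, of a lineage that carries GATA2, moved in the same direction between these days: 7 of 7 tested genes were called higher at day 3 than before irradiation (median log2 change 2.57), and 5 of 7 lower at day 7 than at day 3. Of all named genes, 13.6% were called at day 3 and 1.63% between days 7 and 3, in either direction. In the fit with the replicate block 5 of 7 markers were called at day 3 and none between the 2 days. The split of scan sessions applies to these markers as well. Their mean level ran from 10.3 to 11.3 on the pre-irradiation arrays, and on days 3, 5 and 7 from 13.0 to 13.8, 11.3 to 12.3 and 10.2 to 11.9, and their part in the GATA2 change was not tested.

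EPX, the eosinophil peroxidase, had its highest mean at day 3 and its widest spread at day 7, and was not called. Pre-irradiation arrays ran from 5.32 to 8.76 with a median of 6.76. At day 3 it read 8.95 in replicate 1, 9.07 in replicate 2, 9.23 in replicate 4 and 9.90 in replicate 7, all above every pre-irradiation array. It ran from 4.65 to 10.24 at day 5 and from 2.23 to 9.50 at day 7, with an SD of 2.37 and 2.71. At day 7 replicates 6 and 7 were above all pre-irradiation arrays and replicates 2 and 3 below them all, neither of the latter well above background. The day 3 change was 2.14 ± 0.63 (SE) on the log2 scale, a 4.41-fold higher mean (limma adjusted p = 0.0209), and all 4 pairs were higher, by 0.19 to 2.79.

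CCR3, the eotaxin receptor, was not called on any day. It ran from 7.96 to 9.90 before irradiation, with a median of 9.65. At day 3 it read 9.44 in replicate 1, 9.47 in replicate 2, 9.97 in replicate 4 and 11.04 in replicate 7. Day 5 levels ran from 5.78 to 10.53 and day 7 levels from 4.22 to 9.69, and replicate 2, the lowest on both days, was not well above background on either. The log2 changes were 0.85, −0.52 and −1.09 at days 3, 5 and 7 (limma adjusted p = 0.147, 0.566 and 0.283), and without replicate 2 the day 5 and day 7 values were −0.15 and −0.64.

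IL5RA, the receptor chain for interleukin-5, was well above background on 1 of 7 pre-irradiation arrays, 3 of 4 day 3 arrays, 2 of 6 day 5 arrays and 1 of 7 day 7 arrays. The day 3 arrays read 5.11 in replicate 1, 9.02 in replicate 2, 4.24 in replicate 4 and 5.66 in replicate 7. Replicate 2 stood above the other arrays of its day, while on its pre-irradiation, day 5 and day 7 arrays the same replicate read 2.98, 3.54 and 3.86 and was not well above background. The day 3 change was 1.57 with a 95% interval from −0.20 to 3.35 (limma adjusted p = 0.149), and without replicate 2 it was 0.33.

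ALOX15, the 15-lipoxygenase, had 3 of 4 day 3 arrays within the pre-irradiation range and was lower in mean at days 5 and 7 without passing the threshold. Before irradiation it ran from 6.65 to 8.54 with a median of 7.59. At day 3 the arrays read 7.37 in replicate 1, 7.58 in replicate 2, 7.51 in replicate 4 and 8.80 in replicate 7. They ran from 3.94 to 8.47 at day 5 and from 4.75 to 7.92 at day 7, with 4 of 6 and 5 of 7 arrays below all pre-irradiation arrays. The log2 change was −1.76 ± 0.60 (SE) at day 5 (limma adjusted p = 0.0343) and −1.61 ± 0.48 at day 7 (limma adjusted p = 0.0221). The probe was well above background on 3 of 6 day 5 and 4 of 7 day 7 arrays, and with normexp background the day 5 log2 change was 0.052.

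In counts, 0 of 9 member genes were called at day 3, 1 at day 5 and 1 at day 7, where 13.6%, 15.4% and 9.88% of the brightest probes of all named genes were called in either direction. At an unadjusted p under 0.05 the day 3 count was 3 of 9, below the share of 47% of all named genes. With the replicate number as a block the counts were 0 of 9 at day 3, 1 of 9 at day 5 and 3 of 9 at day 7 (FCER1A, CPA3 and GATA2), against 3.45%, 14.2% and 8.13% of named genes. Between days the counts were 0 of 9 for day 5 against day 3, 1 of 9 for day 7 against day 3 and 0 of 9 for day 7 against day 5, where 0.0368%, 1.63% and 0.0092% of named genes were called. At an unadjusted p under 0.05 the count was 3 of 9 for day 5 against day 3, beside 11.1% of named genes, and 1 of 9 for day 7 against day 5, beside 21.1%. The blocked count for day 7 against day 3 was 0 of 9, with 0% of named genes called. For days 3, 5 and 7 the median log2 change of the 9 genes was 0.77, −0.61 and −1.48. At day 3, 6 of the 9 estimates were above 0, and at day 7 none were. The day 7 estimate of EPX turned above 0 with normexp background and with the authors' series matrix. The day 3 direction did not hold within scan session 2, where, against its single pre-irradiation array, 4 of the 9 were above 0 and the median was −0.23.

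**Figure D2:**
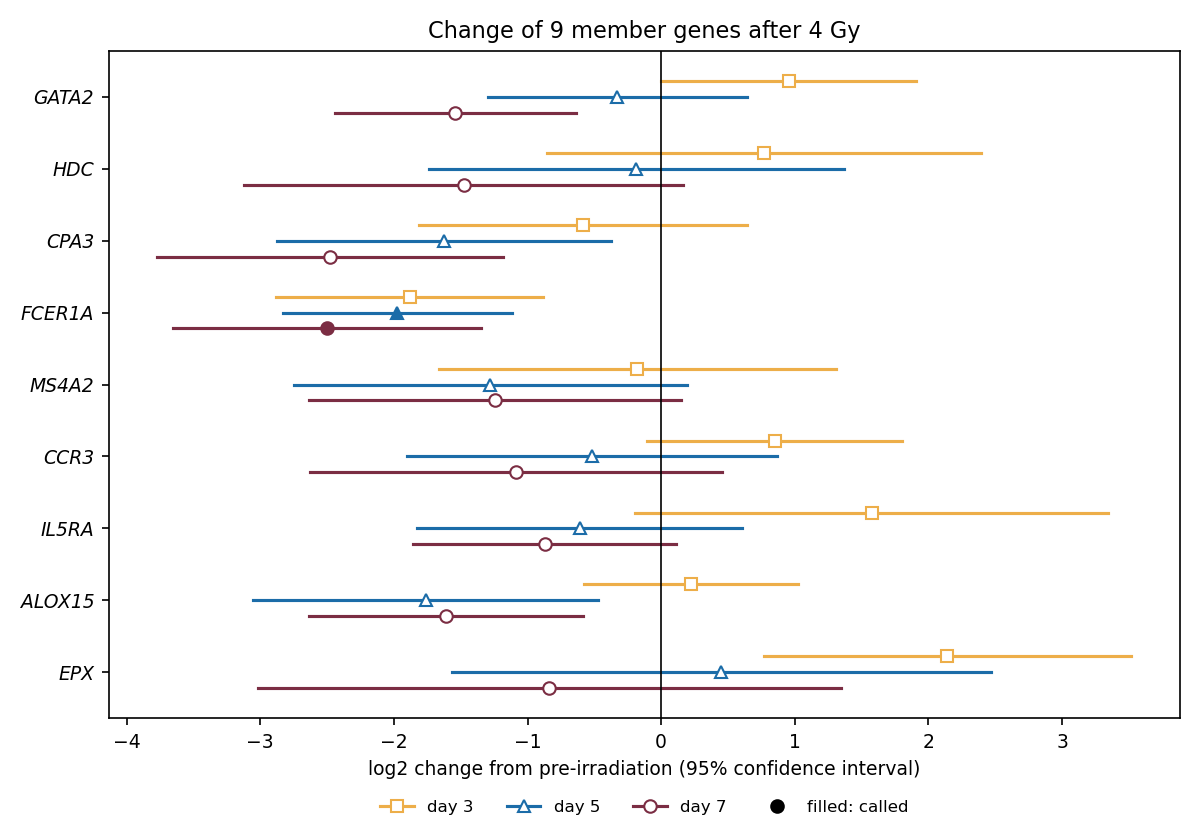
Log2 change from pre-irradiation (x axis) of the 9 tested genes (y axis) at day 3 (squares), day 5 (triangles) and day 7 (circles), with 95% confidence intervals from limma as lines. Filled symbols are called, which holds for FCER1A at days 5 and 7 (−1.97 and −2.50); all 9 day 7 estimates lie below 0, and the intervals of 5 of them include 0.

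Several members varied together. After each group mean was subtracted, the highest correlations between members over the 24 arrays were HDC with CPA3 (Pearson r = 0.92), ALOX15 with EPX (r = 0.83) and CCR3 with EPX (r = 0.80), and the lowest was FCER1A with EPX (r = 0.12). Without that step, which leaves the changes between days in, the highest correlations between members were HDC with CPA3 (Pearson r = 0.86) and CCR3 with EPX (r = 0.82), and the lowest was FCER1A with EPX (r = 0.10). These arrays share animals, days and scan sessions, so the values are a description. The genes most like HDC over the 24 arrays were CPA3, C1H1orf186 (r = 0.85) and GCSAML (r = 0.85), and those most like GATA2 were GCSAML (r = 0.92), C1H1orf186 (r = 0.83) and RTF2 (r = 0.82). ALOX15 was most like LTC4S, the leukotriene C4 synthase (r = 0.90), then ZSWIM5 (r = 0.87) and C1H1orf186 (r = 0.86). EPX was most like CCDC136 (r = 0.86), OLIG2 (r = 0.84) and CCR3, and CCR3 most like CCDC136 (r = 0.84), PTP4A2 (r = 0.83) and C1H1orf186 (r = 0.82). For CPA3 the nearest were HDC, the mitochondrial gene ND4 (r = 0.82) and GCSAML (r = 0.82), and for FCER1A they were FRMD4A (r = 0.80), CPA3 (r = 0.80) and SLC45A3 (r = 0.78). The dim genes had weaker neighbours, CCDC136 (r = 0.72), ADGRG5 (r = 0.69) and FIG4 (r = 0.68) for MS4A2 and WNK4 (r = 0.78), OLIG2 (r = 0.77) and FFAR3 (r = 0.75) for IL5RA.

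Before irradiation, 3 members lay apart by sex on these 7 arrays. All 3 female arrays lay above all 4 male arrays for GATA2 (lowest female 11.79, highest male 11.21), HDC (8.44 and 7.40) and CPA3 (9.21 and 8.48), a difference described here and not tested. Of all named genes tested, 4.98% had every female array above every male array. GATA2, HDC and CPA3 varied together (r from 0.75 to 0.92 after removal of group means), so they are not 3 separate observations, and nothing is read from the count. The response at day 7 was compared between the sexes by limma (interaction of sex and day), and none of the 9 genes was called at an adjusted p under 0.05, nor any probe of 27112. The difference of the day 7 change, female minus male, was 2.23 ± 1.84 (SE) for EPX, 2.13 ± 1.22 for CCR3 and 1.37 ± 0.91 for FCER1A (limma adjusted p = 0.74, 0.618 and 0.671).

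Among 20 other basophil and mast-cell genes, 17 had a probe and 15 were tested. At day 3, 1 was called higher, CD63, a granule membrane protein of many cells (log2 change 0.81). At day 5 and at day 7, 1 was called lower, CRLF2, the receptor chain for thymic stromal lymphopoietin (−1.81 and −1.95, limma adjusted p = 0.000405 and 0.000132). HPGDS, the prostaglandin D synthase of mast cells, changed by 0.83, −0.32 and −1.31 at days 3, 5 and 7 and was called lower at day 7 than at day 3 (−2.14, limma adjusted p = 0.00352). With the replicate number as a block CRLF2 at day 7 remained called, and CD63 at day 3 (limma adjusted p = 0.0218), CRLF2 at day 5 (0.0066) and HPGDS between days 7 and 3 (0.00767) did not. KIT, the stem cell factor receptor, changed by 0.47, −0.54 and −0.88 and was not called. On each of the 3 days 1 of 15 was called, beside 13.6%, 15.4% and 9.88% of all named genes in either direction. Between days 7 and 3 the share of all named genes was 1.63%. The median log2 change of the 15 was 0.53, −0.34 and −0.25 on the 3 days.

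Of 20 other eosinophil genes, 14 had a probe and 13 were tested. At day 3, 2 were called higher: RNASE3, the eosinophil cationic protein that neutrophils also make (mean level 6.18 before irradiation and 7.68 at day 3, limma adjusted p = 0.00477), and the transcription factor CEBPE (1.27), named after its value was seen. That is 2 of 13, near the 13.6% of all named genes called at day 3, and neither was called with the replicate block (limma adjusted p = 0.00832 and 0.0142). At day 5, 2 were called lower: PRG3, the homologue of major basic protein (−1.43), and HRH4, a histamine receptor of eosinophils and basophils (−2.09, limma adjusted p = 0.00305), which was well above background on 2 of 6 day 5 arrays. At day 7, 2 were called lower: PRG3 (−2.35, limma adjusted p = 3.78e-05) and GATA1 (−1.84, limma adjusted p = 0.00062), a transcription factor of eosinophils, basophils, megakaryocytes and red cell precursors. PRG3 (mean levels 12.67 and 14.67) and GATA1 (log2 change −2.50) were also called lower at day 7 than at day 3. With the replicate block the calls of PRG3, HRH4 and GATA1 against pre-irradiation remained, and those between days 7 and 3 did not (limma adjusted p = 0.0101 and 0.0116). The 2 of 13 called at days 5 and 7 stand beside 15.4% and 9.88% of all named genes. Reticulocyte and erythroid markers, of a lineage that uses GATA1, were called lower for 10, 11 and 11 of 12 genes at days 3, 5 and 7, with a mean level from 11.9 to 13.3 before irradiation and from 6.44 to 10.8 at day 7, and their part in the GATA1 change was not tested.
RNASE2, the eosinophil-derived neurotoxin, was well above background on 2 of 7 pre-irradiation arrays and was not called, with log2 differences of 1.55, 0.63 and 0.69 that rest in part on dim signal. PTGDR2, the prostaglandin D2 receptor, had differences of 1.05, −0.11 and −0.33, and CSF2RB, the beta chain that partners IL5RA, differences of 0.72, 0.78 and 0.23, without a call. No probe was found under the names CLC, SIGLEC8 or IL3RA. The median log2 change of the 13 genes was 1.05, 0.27 and −0.18.

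**Figure D3:**
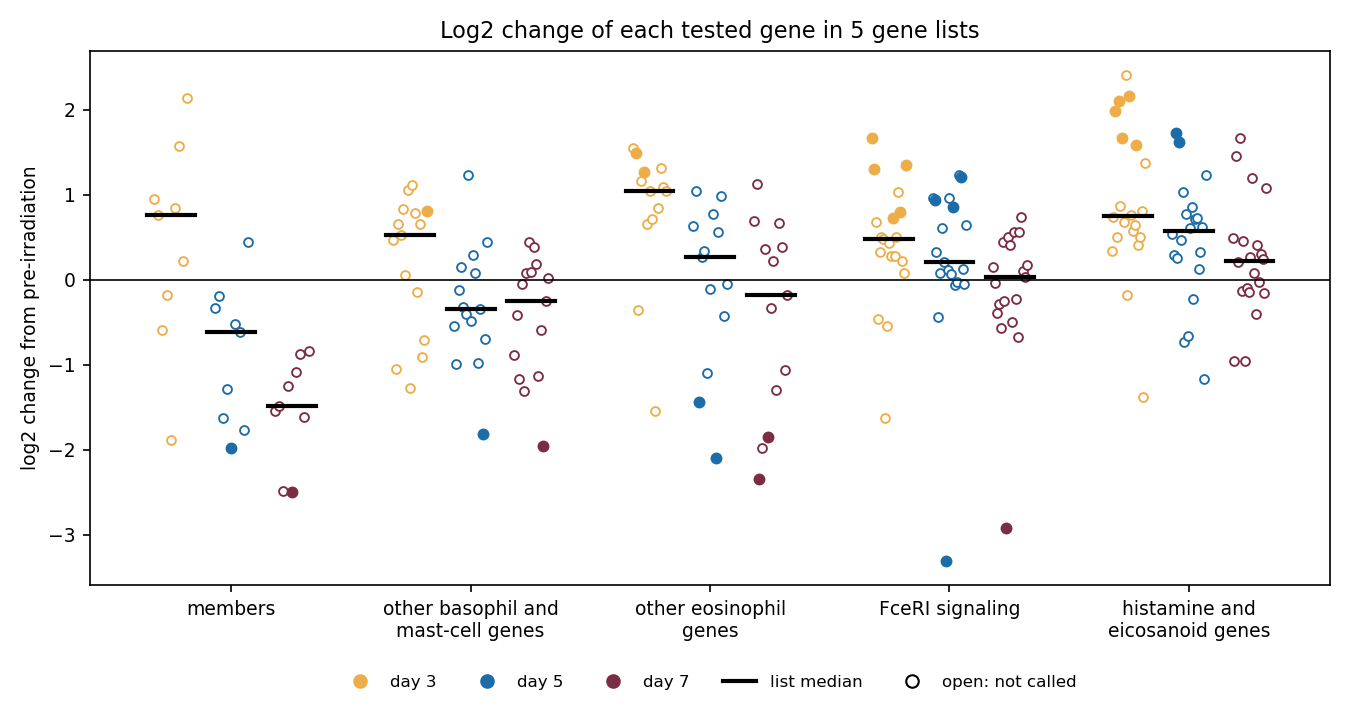
Log2 change from pre-irradiation (y axis) of each tested gene in 5 gene lists (x axis) at days 3, 5 and 7. Each point is 1 gene by its brightest probe, filled points are called, open points are not, and black bars are list medians; the median of the 9 member genes goes from 0.77 at day 3 to −1.48 at day 7, and that of the 13 other eosinophil genes from 1.05 to −0.18.

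Of 22 listed signalling genes below FceRI, 19 had a probe and were tested, and 5 were called higher at day 3 and 3 at day 5, when 13.6% and 15.4% of all named genes were called in either direction. Under the replicate block none of the 5 was called at day 3 (limma adjusted p from 0.0107 to 0.0297), while the calls at days 5 and 7 remained. FCER1G (1.67), the kinases FER (1.35, from a probe well above background on 1 of 7 pre-irradiation arrays, so that the size is set in part by dim signal) and LYN (1.30), and, named after their values were seen, INPP5D (0.80) and VAV1 (0.73) were those of day 3, and LYN (0.94), INPP5D (1.21) and VAV1 (0.85) those of day 5. BTK, a kinase that B cells use in quantity, was called lower at day 5 (−3.31) and day 7 (−2.92) and was the only one of the 19 called at day 7. The part of B cells in the BTK change was not tested.

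A minority of the genes of histamine and eicosanoid handling were called higher at day 3. All 21 listed had a probe and 20 were tested, with 5 called higher at day 3, 2 at day 5 and none at day 7, and none lower. The 5 of 20 stand beside 13.6% of all named genes called at day 3 in either direction, and 18 of the 20 estimates were above 0, the exceptions being PTGDR (−1.37) and ALOX15B (−0.18), named after their values were seen. The replicate block left 2 called at day 3 (ALOX5 and TBXAS1), and gave 3 higher and 1 lower at day 5 and 1 higher at day 7. Without the block the 5 of day 3 were PTGS1 (2.17), the cyclooxygenase of platelets and other cells, ALOX5 (2.10) and LTA4H (1.67), which make leukotrienes, the histamine receptor HRH1 (1.99), and TBXAS1 (1.58), the thromboxane synthase, named after its value was seen. HRH1 (1.72) and ALOX5 (1.63) were called at day 5. PTGS1 was called lower at day 7 than at day 3 (−1.90, limma adjusted p = 0.00465), but not with the replicate block (0.0129).

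The ligands of the member receptors were mostly too dim for whole blood RNA: 16 of 17 had a probe and 6 were tested. IL5, the ligand of IL5RA, changed by −0.38, 0.01 and 0.21 without a call, and IL3 was well above background on at most 1 array and was not tested. CSF2, the growth factor GM-CSF, was called lower at day 7 (limma adjusted p = 0.00275), but it was well above background on 3 of 7 pre-irradiation and 1 of 7 day 7 arrays, so the size of its change is set largely by dim signal. Progenitor markers, of cells that carry GATA2, had 7 tested genes. GFI1B was called higher at day 3 (1.72, limma adjusted p = 0.00525 with the replicate block). LMO2 was called higher (1.09, limma adjusted p = 0.0117 with the block) and TAL1 lower (−2.16) at day 5, and TAL1 lower at day 7 (−2.04). Between days 7 and 3, GFI1B (−2.71) and MEIS1 (−2.21) were called lower at day 7, but not with the block (limma adjusted p = 0.00744 and 0.00693). SPINK2 (0.88) and MYB (1.63), named after their values were seen, had higher means at day 7 than at day 3, without a call. The part of progenitors in the GATA2 change was not tested. CD34 was well above background on at most 2 arrays. Of the remaining lineage lists, monocyte markers had 2 of 6 genes called higher on each day (1, 1 and 0 with the replicate block). Neutrophil granule markers had at most 1 of 8 higher and 2 lower, and with the block 2 higher and 2 lower at day 7. T-cell markers had none of 5 called against pre-irradiation. Beside these stand 13.6%, 15.4% and 9.88% of all named genes called at days 3, 5 and 7 (3.45%, 14.2% and 8.13% with the block).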

How the data were processed

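Arrays were read as the scanner output deposited by the authors, whose processed signal is an intensity with local background subtracted, gradients corrected and low values replaced by a surrogate (Agilent Feature Extraction 10.7 per the submitters' processing notes, 12.0.2.2 per the file headers). The authors' methods name BRB ArrayTools, normalization to the median array and a human array; the files hold a rhesus design. The authors' deposited series matrix holds log2 values and served as an alternative.

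The intensity was taken to log2, spots marked as outliers were dropped, saturated spots kept, the spots of a probe averaged, and each array shifted to the median array over the probes tested (shifts from −0.87 to 2.03). Of 43603 probes 27112 were tested. Each pair of groups was fitted alone with limma 3.58.1 in R 4.3.3, two-sided. Adjusted p-values run over all probes tested; a gene stands by its brightest probe. The fit of day 7 against pre-irradiation was tested on simulated arrays, drawn independently of each other. They held no effect of animal, scan session or slide, so the test does not cover such effects or the other comparisons. The labels number the replicates without saying that a number is 1 animal, which is how it is read here, and p-values measure the spread between arrays. Their number limits the precision.

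Same-numbered arrays correlated in their deviations from group means, with r from 0.13 to 0.65 in all pairs of each comparison (median of different numbers −0.09 to −0.05), so the replicate number was also fitted as a block. Alternatives were 75th percentile and quantile normalization, normexp background, no filter, a filter of 12 arrays, the series matrix, blocks of replicate, scan session and slide, 1 fit of all groups, leaving out each replicate, and the other CPA3 probe. One fit of all groups with a replicate block was added after seeing the data.

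The members and gene lists were chosen with earlier results of these data known. All members are named; from each other list, counts, the members' direct partners and at most the 4 called genes with the largest change are named, and further genes are marked as named after their values were seen. The 3 genes most like each member are those with the highest Pearson correlation over 24 arrays.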

Additional observations from a re-analysis of the deposited data

Results flagged for a closer look

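FCER1A stood apart on the day 3 array of replicate 1, which read 5.81 on the log2 scale while the other 3 arrays of that day lay between 8.14 and 8.50. ALOX15 stood apart on the day 3 array of replicate 7, at 8.80 against 7.37 to 7.58 on the other 3. Both were well above background, and these were 2 of 40 groups of arrays examined, where chance gives about 1 in 20. GATA2 differed between days, with a log2 change of −2.49 from day 3 to day 7 that was called in the fit of these 2 groups alone.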

How the results depend on the processing

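At day 3 no member gene was called under the alternatives run, except that leaving out 1 replicate number gave 0 to 1. At day 5, where 1 was called, the count was 0 with normexp background, no filter, a scan session block, a slide block or all groups in 1 fit, 3 with all groups in 1 fit and a replicate block, and 0 to 1 leaving out 1 replicate. At day 7, where 1 was called, it was 0 with normexp background, no filter, a slide block or within scan session 1, 2 with the series matrix or the other CPA3 probe, 3 with the replicate block, 4 with all groups in 1 fit and a replicate block, and 0 to 1 leaving out 1 replicate. For day 7 against day 3, where 1 was called, it was 0 with quantile normalization, normexp background, no filter or blocks of replicate, scan session or slide, 2 with all groups in 1 fit and a replicate block, and 0 to 0 leaving out 1 replicate. Day 5 against day 3, day 7 against day 5 and the sex comparison gave 0 throughout. The replicate block changed no other member's call.

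Some log2 changes with no call turned sign. At day 3 these were GATA2 (scan session block −0.39, slide block −0.22), HDC (scan session block −0.23; −0.13 to 1.53 leaving out 1 replicate), MS4A2 (normexp 0.11, scan session block 0.27, slide block 0.85; −0.58 to 0.49 leaving out 1) and ALOX15 (scan session block −0.38, slide block −0.041; −0.11 to 0.38 leaving out 1). At day 5 they were HDC (normexp 0.46, no filter 0.11; −0.80 to 0.24 leaving out 1), MS4A2 (normexp 0.34), CCR3 (normexp 0.062), IL5RA (normexp 0.48, scan session block 0.75), ALOX15 (normexp 0.052) and EPX (slide block −2.10), and at day 7 EPX (normexp 0.097, series matrix 0.51). The cause was not tested. Of 675 values of single members under alternatives, 612 kept direction and call, 29 lost the call, 11 gained it and 23 changed sign. Over all probes tested, 3656 were called at day 3 (normexp 139, replicate block 765, scan session block 37, slide block 0), 4542 at day 5 (normexp 239), 2954 at day 7 (normexp 317) and 347 for day 7 against day 3 (normexp 6, replicate block 0). Dim signal limits MS4A2 and IL5RA most, and PRG2 could not be tested.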
